A study of Dugesia japonica with 18 samples.

Results

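Motile cilia and their axonemes were followed across the body and over regeneration days of the planarian Dugesia japonica through the mRNA of 104 unigenes, the assembled transcripts of this flatworm. A unigene was taken in when the recommended name of its best protein match held one of 9 phrases, such as axonemal, Tektin, Radial spoke, Dynein regulatory complex or Intraflagellar transport, and when it reached 1 CPM (a count scaled to the library's total) in at least 3 of 18 libraries. Of 267235 unigenes 134 bore such a name at any level, 30 of them stayed under this minimum, and 104 of the 23616 unigenes above it were kept. Matches to ciliates, single-celled organisms rich in cilia, were to be left out. There were 0 among the kept unigenes, although only 38 of the 104 carried the annotation in which this could be read. The 104 bore 75 different names. Of these names 19 were shared by several unigenes, 48 in all, and reads may be divided among such unigenes, so that counts of single copies are uncertain. The files do not say whether unigenes of 1 name are pieces of a transcript, alleles or paralogs.

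A motile cilium beats through its axoneme, a ring of doublet microtubules around a central pair. Dynein motors, large heavy chains with smaller intermediate and light chains, stand on the doublets as outer and inner arms and slide them past each other. The dynein regulatory complex and the radial spokes control these motors, tektins and many proteins named cilia- and flagella-associated (CFAP) line or join the microtubules, and intraflagellar transport (IFT) particles carry building material along the cilium. Planarians glide on the cilia of their epidermis, and also bear motile cilia in the flame cells of the protonephridia, their excretory organs, and in sperm.

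The study cut animals into head, trunk and tail and named days 0, 1, 3, 5, 7 and 10 for each fragment, as part of work on the RNA mark m6A and the head-to-tail axis. Each of the 18 libraries was made from polyA RNA of a mixed pool of 10 to 20 animals, with 1 library for every fragment and day and no repeat. The strain, the reproductive form and the age of the animals, the meaning of day 0 and the time between cut and sampling are not given in the sources used here. Since no fragment and day was repeated, p-values rest on the agreement of the days within a fragment, or of the fragments within a day, and not on the spread between pools.

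Between 17547716 and 21229980 counts were assigned per library, and a floor of 3 counts corresponded to 0.106 to 0.249 CPM. Values below are CPM after scaling with TMM factors, which align the bulk of unigenes between libraries. Scaling matters here because a single unigene took 41.2 to 49.6% of the counts in tail and 13 to 32.2% in head. The head library of day 1 stood apart, with 13% for that unigene against 26.2% or more in the other head libraries. The fragment labels were set against neuronal markers, such as synaptotagmins, which summed to 1542 to 1771 CPM in head, 574 to 789 in trunk and 731 to 1299 in tail.

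Cilia unigenes were lower in head and in trunk than in tail when all days were fitted together. In head, 60 of the 104 were lower than in tail and 2 were higher (19.1% and 18.9% of all tested unigenes), and 42 were not called. Of the 60, 7 rare unigenes reached the minimum level only through trunk and tail and had to be lower in head. In trunk, 55 were lower than in tail and 1 was higher (17.5% and 18.1% of all unigenes). Among the 55 is the rare TRINITY_DN15768_c0_g2, which reached the minimum level only through head and tail and had to be lower in trunk. Among the 84 members with a mean of 5 CPM or more, a split chosen after the values were seen that leaves 20 below it, 51 were lower and 1 higher in head than in tail, and 53 lower and 1 higher in trunk. Of the members, 44 were lower in both head and trunk. Both comparisons use the same tail libraries, and the share of all tested unigenes called in both is not given here. Typical differences were small: the median log2 fold change was -0.345 for head against tail and -0.386 for trunk against tail, where all tested unigenes had 0.023 and 0.001. These medians turned to 0.347 and 0.004 when CPM was taken over library totals alone, a scaling that moved the median of all unigenes by 0.695 and 0.394. That shift is common to all unigenes, and relative to their median the members then stood at -0.371 and -0.392. Libraries of the fragments mostly overlapped: of the 84 members above 5 CPM, 3 did not overlap between head and tail, 2 between trunk and tail and 2 between head and trunk, where 20.9%, 20.4% and 27.8% of all tested unigenes of that level did not. Class medians with library totals are given below with their value relative to all unigenes in brackets. In pooled tissue fewer ciliated cells and less of an mRNA per cell cannot be told apart.

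The gap between the fragments was near 0 on day 0. There the median log2 ratio of head to tail over the 104 was -0.013, with 53 lower in head, and the ratio of trunk to tail was -0.025. The head ratio was -0.057 on day 1, -0.288 on day 3, -0.488 on day 5, -0.673 on day 7 and -0.665 on day 10. On that last day 92 of 104 were lower in head. The 84 members above 5 CPM went from 0.08 on day 0 to -0.68 on day 10. All tested unigenes ranged from -0.042 to 0.069 over the same days. Trunk against tail was uneven, at -0.243 on day 1 (78 of 104 lower), -0.467 on day 3 and -0.268 on day 5. It stood at -0.643 on day 7 and at -0.467 on day 10. In tail the median level relative to each unigene's own mean was 0.03 on day 0, 0.34 on day 3 and 0.60 on day 10 (log2), while head stood at 0.04 and 0.01 on days 0 and 10. With 1 library per day this course is a description.

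**Figure D1:**
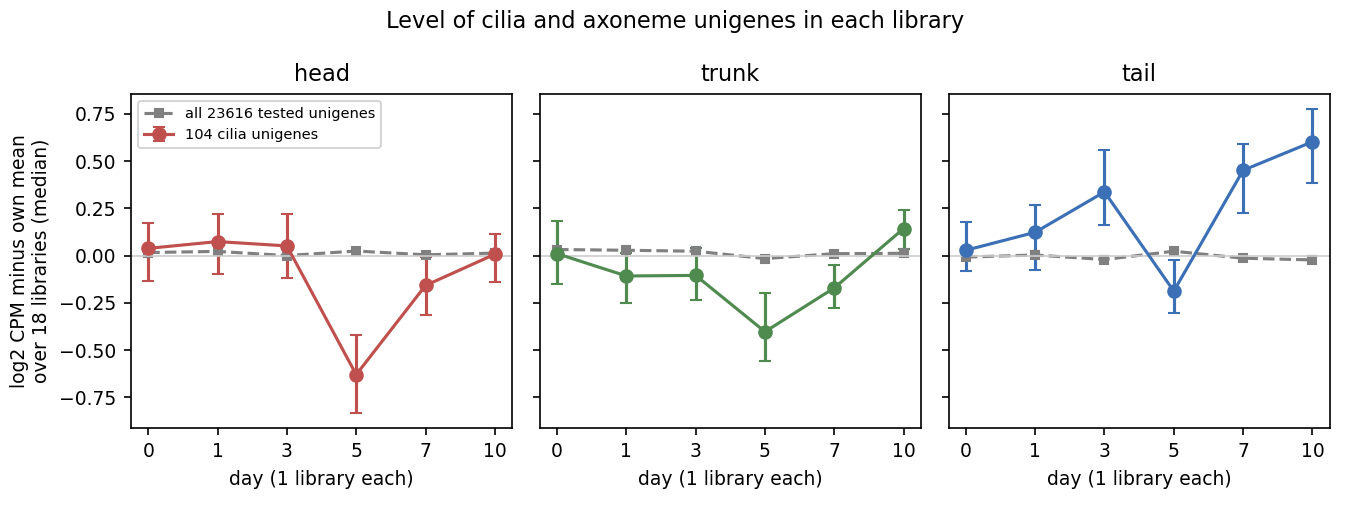
Median log2 CPM of the 104 cilia unigenes in each library, relative to each unigene's own mean over 18 libraries (vertical axis), by day (horizontal axis, evenly spaced) in head, trunk and tail. Bars span the quartiles over unigenes, grey squares are the median of all 23616 tested unigenes. Day 5 is the lowest day in each fragment, at -0.63 in head, -0.40 in trunk and -0.19 in tail, and tail reaches 0.60 on day 10.

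Most motor chains were not called between head and tail. Of 9 heavy chain unigenes of the outer arm 3 were lower in head (33.33%), and of 13 of the inner arm 4 (30.77%). Of all tested unigenes 19.1% were lower in head. The class medians of -0.401 and -0.227 turned to 0.289 (-0.430) and 0.470 (-0.249) with library totals. The outer-arm calls were all on unigenes of 0.742 to 3.10 CPM. The 3 abundant outer-arm chains had a median of 0.05 and the 6 under 5 CPM one of -1.19. Of those called, TRINITY_DN4472_c1_g1 was admitted through trunk and tail and had to be lower in head. TRINITY_DN4472_c1_g2 had 1 head library of 1 CPM, against 6 in trunk and 6 in tail, so that it was admitted largely through these as well. The most abundant, a Dynein axonemal heavy chain 5 (TRINITY_DN7907_c1_g1, with 5 other unigenes of the name), the force-producing chain of the outer arm, ranged from 112 to 178 CPM in head with a median of 148. It had 119 to 164 in trunk with a median of 137, and 114 to 179 in tail with a median of 140. The 3 ranges overlapped almost whole, and head against tail gave log2 0.03 ± 0.11 (SE; adjusted p = 0.866, edgeR quasi-likelihood test with Benjamini-Hochberg adjustment, as for all values below). Among inner-arm chains, Dynein axonemal heavy chain 3 (TRINITY_DN8741_c0_g6) had 46.3 to 79.4 CPM in head with a median of 69.4, and 70.4 to 121 in tail with a median of 94.6. It was lower in head on 6 of 6 days, by log2 -0.49 ± 0.10 (adjusted p = 0.000632), and lower in trunk than in tail by -0.38 ± 0.10. The ranges of head and tail still overlapped. Dynein axonemal heavy chain 1 (TRINITY_DN2978_c0_g2), the most abundant of the inner arm at a mean of 116 CPM, had log2 -0.22 ± 0.11 and was not called (adjusted p = 0.114).

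Of 3 intermediate chain unigenes, which hold heavy chains to the base of the arm, 2 were lower in head and 2 in trunk than in tail, and the class medians of -0.431 and -0.282 turned to 0.259 (-0.460) and 0.107 (-0.289) with library totals. Dynein axonemal intermediate chain 3 (TRINITY_DN23387_c0_g1) ranged from 21.6 to 40.9 CPM in head (median 33.9), from 27.9 to 46.8 in trunk (35.6) and from 31.7 to 66.1 in tail (45.4), with log2 -0.49 ± 0.10 for head against tail (adjusted p = 0.000842, 6 of 6 days). Of 5 docking proteins, which fix the outer arm to its doublet, 4 were lower in head and 3 in trunk, with a head median of -0.423 that turned to 0.266 (-0.453) with library totals. Outer dynein arm-docking complex subunit 3 (TRINITY_DN6672_c0_g1) had 62.9 to 142 CPM in head (median 121), 81.1 to 131 in trunk (96.1) and 119 to 237 in tail (157). The log2 fold changes were -0.55 ± 0.12 for head (adjusted p = 0.0013) and -0.72 ± 0.12 for trunk (adjusted p = 0.000194), each on 6 of 6 days.

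Assembly factors, cytoplasmic proteins that prepare dynein arms before they enter the cilium, included both members above 5 CPM whose trunk and tail libraries did not overlap. Dynein axonemal assembly factor 11 (TRINITY_DN3285_c0_g1) ranged from 10.4 to 16.4 CPM in head with a median of 13.6, from 13.2 to 15.4 in trunk with a median of 14.4, and from 17.2 to 25.4 in tail with a median of 21.2. No head or trunk library reached the lowest tail library. The log2 fold change was -0.68 ± 0.09 for head (adjusted p = 1.45e-05) and -0.57 ± 0.09 for trunk (adjusted p = 0.000141). Assembly factor 4 (TRINITY_DN12824_c0_g1) also had all trunk libraries, at 6.58 to 9.28 CPM, below all tail libraries, at 9.31 to 17.8. In all, 3 of 5 assembly factors were lower in head and 4 in trunk. The head median of the class, -0.341, turned to 0.359 (-0.360) with library totals, while the trunk median went from -0.565 to -0.170 and kept its sign.

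The dynein regulatory complex, the link between neighbouring doublets that holds sliding in check, was lower than in tail in 8 of 9 unigenes in head and in 8 of 9 in trunk, with a head median of -0.483 that turned to 0.202 (-0.516) with library totals. Its subunit 4 (Dynein regulatory complex subunit 4, TRINITY_DN4681_c0_g1) was the most abundant cilia unigene, with a mean of 231 CPM. It had 134 to 254 CPM in head (median 236), 138 to 229 in trunk (184) and 198 to 396 in tail (283). Tail was highest on 5 of 6 days against head and on 6 of 6 against trunk, with log2 -0.38 ± 0.10 (adjusted p = 0.00624) and -0.61 ± 0.10 (adjusted p = 0.000208). In tail it stood at 231 on day 0 and 396 on day 10, in head at 244 and 247. Subunit 5 (TRINITY_DN54181_c0_g1) and the complex proteins 11 (TRINITY_DN435_c1_g1) and 1 (TRINITY_DN31818_c0_g1) had log2 -0.61 ± 0.13, -0.61 ± 0.11 and -0.58 ± 0.11 for head against tail.

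Radial spokes, which pass signals from the central pair to the arms, were lower in head than in tail in 4 of 4 unigenes and lower in trunk in 3, with a head median of -0.376 that turned to 0.312 (-0.407) with library totals. The rare Radial spoke head protein 4 homolog A among them was admitted through trunk and tail and had to be lower in head. Radial spoke head protein 3 homolog (TRINITY_DN145238_c1_g1) had 101 to 225 CPM in head (median 178), 130 to 211 in trunk (157) and 150 to 321 in tail (217). Head differed from tail by log2 -0.31 ± 0.11 (adjusted p = 0.0288, 5 of 6 days) and trunk by -0.43 ± 0.11 (adjusted p = 0.0055, 6 of 6 days). Coiled-coil domain-containing proteins 39 and 40 form the ruler that sets the spacing of spokes and arms. All 3 of their unigenes were lower in head (median -0.628, turning to 0.066 with library totals and -0.652 relative to all unigenes), 1 of them admitted through trunk and tail, and the abundant copies TRINITY_DN3077_c0_g1 (protein 39) and TRINITY_DN5336_c1_g1 (protein 40) had log2 -0.33 ± 0.10 and -0.63 ± 0.13 there.

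Tektins, filament proteins inside the doublet wall, did not share the pattern as a class, with 2 of 8 lower and 1 higher in head and a median of -0.022 that turned to 0.669 (-0.050) with library totals. Of those 2, the rare Tektin-3 was admitted through trunk and tail. Tektin-2 (TRINITY_DN5373_c0_g1) was lower in head by log2 -0.29 ± 0.11 (adjusted p = 0.0428) and in trunk by -0.43 ± 0.11. A Tektin-3 (TRINITY_DN26821_c0_g1, 3 other unigenes of the name) went the other way. It had 14.1 to 36.8 CPM in head (median 29.8), 18.8 to 37.8 in trunk (28.9) and 9.90 to 33.9 in tail (21.9). Head exceeded tail by log2 0.45 ± 0.13 (adjusted p = 0.0128) on 5 of 6 days and trunk by 0.48 ± 0.13 (adjusted p = 0.00923) on 6 of 6. Against trunk no such difference was called in head (-0.03 ± 0.13).

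CFAP proteins, the widest class, were lower in head in 16 of 26 and lower in trunk in 17 of 26, with 0 higher in either by edgeR. The head median of -0.335 turned to 0.353 (-0.366) with library totals, and the trunk median went from -0.408 to -0.023 (-0.418). The rare protein 45 among the 16 was admitted through trunk and tail. Cilia- and flagella-associated protein 58 (TRINITY_DN8985_c0_g1), a coiled-coil protein of cilia and sperm, had 36.0 to 80.8 CPM in head (median 67.6), 51.1 to 84.0 in trunk (61.6) and 67.2 to 139 in tail (109). Tail exceeded each of the others on 6 of 6 days, with log2 -0.72 ± 0.12 for head (adjusted p = 0.000127) and -0.72 ± 0.12 for trunk (adjusted p = 0.000181). Protein 53 (TRINITY_DN19724_c0_g1), which helps attach outer arms, had -0.59 ± 0.13 and -0.74 ± 0.13. Of 6 other axonemal proteins 5 were lower in head and 3 in trunk, with medians of -0.448 and -0.229 that turned to 0.242 (-0.477) and 0.157 (-0.239) with library totals. Of the 5, 2 were admitted through trunk and tail. Those called in both include Stabilizer of axonemal microtubules 1 (TRINITY_DN4645_c0_g1) with log2 -0.48 ± 0.10 and -0.40 ± 0.10.

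Transport particles were also lower in head and trunk where called, with 1 exception. Of 10 unigenes of IFT-B, the complex that moves outward along the cilium, 5 were lower in head, 1 was higher, and 7 were lower in trunk. The head median of -0.256 turned to 0.440 (-0.279) with library totals. Intraflagellar transport protein 80 homolog (TRINITY_DN51_c0_g1) had 29.9 to 55.3 CPM in head (median 41.5), 36.7 to 50.1 in trunk (41.7) and 44.6 to 73.8 in tail (60.6), with log2 -0.48 ± 0.10 for head and -0.47 ± 0.10 for trunk, on 6 of 6 days each. Protein 74 had 2 unigenes that differed in sign between head and tail: TRINITY_DN12191_c1_g2, at a mean of 21.0 CPM, had log2 -0.67 ± 0.12 (adjusted p = 0.000384), and TRINITY_DN12191_c1_g1, at 1.41 CPM, had 0.76 ± 0.26 (adjusted p = 0.0296). Of 3 IFT-A unigenes, which belong to inward transport, the 1 called was Intraflagellar transport protein 140 homolog (TRINITY_DN2852_c0_g1), with -0.36 ± 0.10 in head and -0.45 ± 0.10 in trunk.

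**Figure D2:**
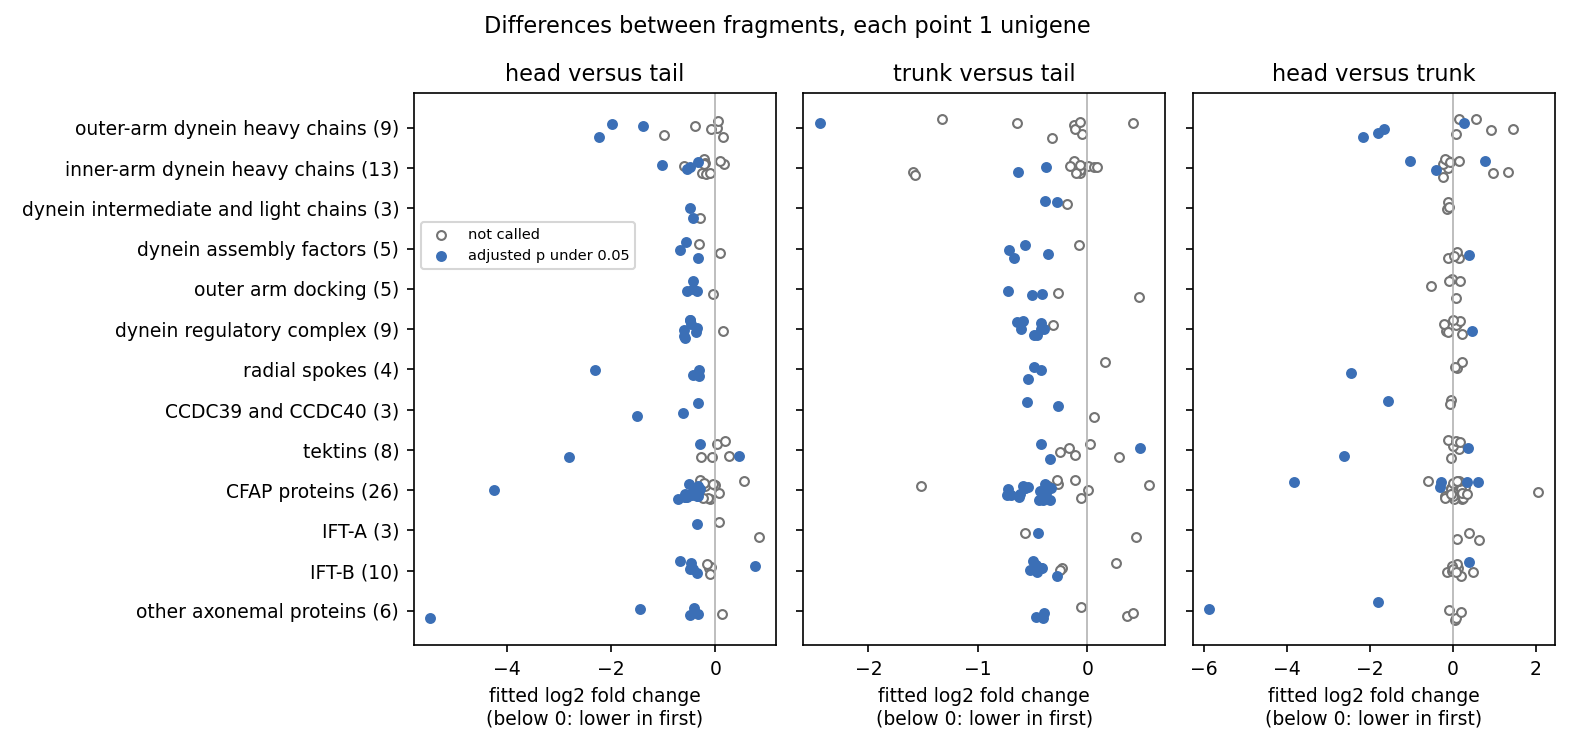
Fitted log2 fold change (horizontal axes, each with its own range) of every cilia unigene by class of protein (vertical axis, number of unigenes in brackets) for head against tail, trunk against tail and head against trunk. Filled points passed an adjusted p of 0.05. All values are with TMM scaling. Called points of the panels against tail lie mostly between 0 and -1, and the most negative called points belong to rare unigenes. Values with library totals, which are higher, are not drawn.

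Head and trunk differed less evenly. Against trunk 13 members were lower in head and 8 higher (21.7% and 17.8% of all tested unigenes). The median log2 was 0.041 against -0.002 for all unigenes. With library totals it was 0.347, and 0.048 relative to all unigenes. Cilia- and flagella-associated protein 418 (TRINITY_DN5828_c0_g1) was the clearest of those higher in head, with 31.0 to 53.7 CPM in head (median 45.1), 19.3 to 34.8 in trunk (30.8) and 30.8 to 58.0 in tail (43.0). Trunk was the low fragment here: head exceeded it by log2 0.60 ± 0.09 (adjusted p = 5.7e-05) on 6 of 6 days, and head against tail gave 0.07 ± 0.09. Dynein axonemal heavy chain 2 (TRINITY_DN1883_c0_g2) had 5.18 to 7.04 CPM in head and 2.67 to 4.38 in trunk, without overlap, and log2 0.79 ± 0.16 (adjusted p = 0.000944). Without the head library of day 1, 3 were higher and 17 lower. The calls of Dynein axonemal assembly factor 3 (TRINITY_DN2419_c0_g1), Dynein regulatory complex subunit 6 (TRINITY_DN10649_c2_g1) and Intraflagellar transport protein 52 homolog (TRINITY_DN6054_c0_g2), all higher in head than trunk, ended there, at log2 0.37, 0.35 and 0.30.

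The 13 unigenes called lower in head than in both other fragments were mostly rare, and what they show is limited by the minimum of 1 CPM in 3 libraries. Both comparisons use the same head libraries, and the share of all tested unigenes called in both is not given here. Of the 13, 9 had a mean under 5 CPM, and 7 of these had 0 head libraries of 1 CPM, so that they were admitted through trunk and tail alone and had to be lower in head. Their values are given as a description, with no test. A Tektin-3 (TRINITY_DN76718_c0_g1) had 0.042 to 0.396 CPM in head (median 0.197), 0.881 to 2.73 in trunk (1.10) and 0.613 to 2.91 in tail (1.52). Radial spoke head protein 4 homolog A (TRINITY_DN53304_c0_g1) had 0.042 to 0.396 CPM in head, 0.773 to 1.97 in trunk and 0.312 to 2.34 in tail. A Stabilizer of axonemal microtubules 1 (TRINITY_DN104966_c0_g1) had 1 count over 6 head libraries, 91 over trunk and 51 over tail, and a Cilia- and flagella-associated protein 45 (TRINITY_DN6861_c0_g1) had 9, 107 and 109. The other 3 were a Dynein axonemal heavy chain 5 (TRINITY_DN4472_c1_g1), a Coiled-coil domain-containing protein 39 (TRINITY_DN38141_c0_g1) and another Stabilizer of axonemal microtubules 1 (TRINITY_DN1097_c0_g1). Likewise, 6 rare members had 0 trunk libraries of 1 CPM and had to be lower in trunk than in the fragments that admitted them.

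A few unigenes low in head passed the minimum in head as well. A Dynein axonemal heavy chain 5 of low level (TRINITY_DN20154_c0_g1), with 4 head libraries of 1 CPM before TMM scaling, had 0.625 to 1.28 CPM in head with a median of 0.907. In trunk it had 3.43 to 4.96 with a median of 3.90, and in tail 2.59 to 6.45 with a median of 4.69. All head libraries were below all others, unlike the abundant copy described above. Head was lower than tail by log2 -2.23 ± 0.24 (adjusted p = 2.66e-06) and lower than trunk by -2.16 ± 0.24 (adjusted p = 3.81e-06), while trunk and tail differed by -0.07 ± 0.22.

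Dynein axonemal heavy chain 10, an inner-arm chain, was lower in head than in trunk in both of its unigenes, the abundant TRINITY_DN2978_c0_g1 (112 CPM, log2 -0.42 ± 0.11, adjusted p = 0.00731) and TRINITY_DN20718_c0_g2 (6.01 CPM, -1.04 ± 0.18, adjusted p = 0.000219). The abundant unigene named Cilia- and flagella-associated protein 45 (TRINITY_DN3342_c0_g1, 111 CPM, added after its values were seen) was higher in head than in trunk by log2 0.34 ± 0.12. Of the 20 members under 5 CPM 18 share their name with another cilia unigene, and their libraries held a median of 17 counts, against 691 for the rest.

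**Figure D3:**
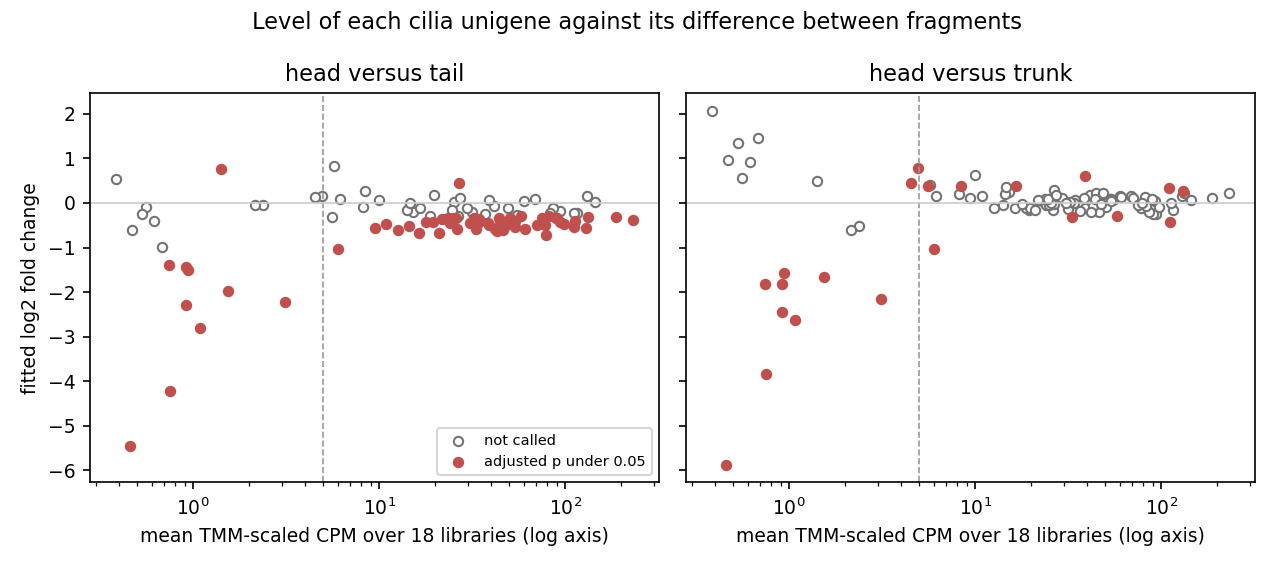
Mean TMM-scaled CPM of each cilia unigene over 18 libraries (horizontal log axis) against its fitted log2 fold change (vertical axis) for head against tail and head against trunk. Filled points passed an adjusted p of 0.05, and the dashed line marks 5 CPM. To its left called unigenes fall as low as -5.46 and -5.88, values that rest on very few head counts in unigenes admitted through trunk and tail, and to its right the lowest are -1.03 and -1.04.

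Day 5 stood out in all 3 fragments. Relative to day 0, 18 cilia unigenes fell on day 5 and 0 rose by edgeR, where 3.92% of all tested unigenes fell and 1.08% rose. An unadjusted p under 0.05 was reached by 64 of the 104 and by 4596 of the 23616 tested unigenes. The median log2 change was -0.438, and 95 of the 104 were negative, beside 0.007 for all unigenes. By fragment, the median difference between day 5 and day 0 was -0.638 in head, -0.416 in trunk and -0.243 in tail. The day 5 library lay below those of days 3 and 7 in 88 of 104 unigenes in head, 81 in trunk and 86 in tail, and in 71 (68.27%) in all 3, against 9.26% of all tested unigenes. Over all days, 29 of the 104 differed on at least 1 day (4.59% of all unigenes), 15 of them among the 18.

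The largest fitted decreases among the 18 were those of 3 of the 4 unigenes named Tektin-3. TRINITY_DN3512_c0_g1 had 27.6, 36.2, 24.0, 12.4, 22.5 and 29.6 CPM in head over days 0, 1, 3, 5, 7 and 10. The values in trunk were 29.9, 31.1, 24.0, 13.9, 21.9 and 29.6, and in tail 24.9, 27.1, 17.1, 12.6, 27.9 and 41.3. Day 5 was the lowest library of each fragment, and each day 10 library was above it. The fitted change on day 5 was log2 -1.08 ± 0.17 (adjusted p = 0.00294). TRINITY_DN26821_c0_g1 changed by -1.22 ± 0.19 (adjusted p = 0.0026) and TRINITY_DN13360_c1_g1, outside the rule for named genes, by -1.13 ± 0.24 (adjusted p = 0.0144). The rare Tektin-3 copy was not called.

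Several structures of the axoneme were among the 18. Of 9 outer-arm heavy chains 0 were called by edgeR (3 had an unadjusted p under 0.05), but the 3 abundant ones stood at log2 -0.45 to -0.34 on day 5, near the median of all members, and the 6 of 0.561 to 3.10 CPM at 0.23 to 0.95. They held 4 tektins, 5 CFAP proteins, 2 docking proteins, 2 intermediate chains, 2 of the dynein regulatory complex, 1 radial spoke protein, 1 inner-arm heavy chain and Sperm axonemal maintenance protein CFAP97D1 (TRINITY_DN8089_c0_g1, log2 -0.63 ± 0.12, adjusted p = 0.00885). Cilia- and flagella-associated protein 206 (TRINITY_DN131085_c0_g1), a protein at the base of a radial spoke, had 42.4 CPM on day 0 and 20.4 on day 5 in head, 35.5 and 23.9 in trunk, and 47.5 and 32.3 in tail. It fell by log2 -0.73 ± 0.13 (adjusted p = 0.00471). Of 10 IFT-B, 3 IFT-A and 5 assembly factor unigenes 0 were called on day 5 by edgeR (5, 1 and 2 had an unadjusted p under 0.05), with medians of -0.335, -0.314 and -0.359. Radial spoke head protein 3, called over any day (adjusted p = 0.0107), combined a low day 5 (-0.36, not called) with later values above day 0 (0.61 on day 10, adjusted p = 0.0634).

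**Figure D4:**
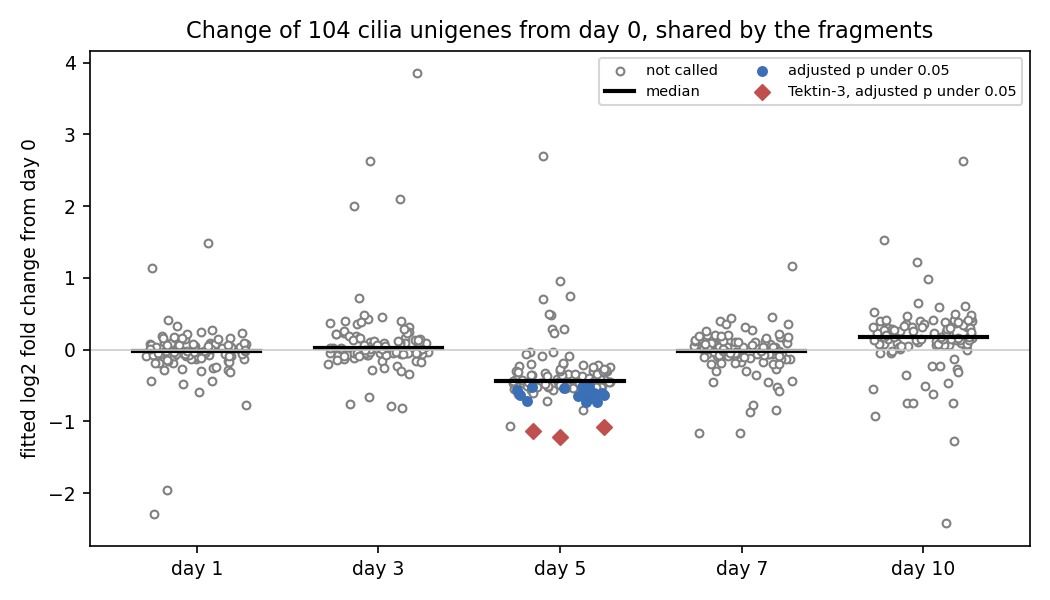
Fitted log2 fold change from day 0 (vertical axis) of each of the 104 cilia unigenes on days 1, 3, 5, 7 and 10, with all 3 fragments in 1 fit. Black bars are medians, blue points and red diamonds (Tektin-3) passed an adjusted p of 0.05. Called points occur on day 5 alone, where the median is -0.438.

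In the fit shared by the fragments, the other days differed little from day 0. That fit averages fragments whose courses differed. Relative to each unigene's own mean, the tail median was 0.03, 0.45 and 0.60 on days 0, 7 and 10. Head had 0.04, -0.16 and 0.01 on these days, and trunk 0.01, -0.17 and 0.14. In the shared fit 0 members were called by edgeR on days 1, 3, 7 and 10, where 0.364%, 0.847%, 1.01% and 1.02% of all unigenes were. An unadjusted p under 0.05 was reached by 3, 9, 4 and 25 members, and by 2269, 2479, 3082 and 3483 of the 23616 tested unigenes. The day 10 median was 0.177, with 84 of 104 above day 0. The day 5 calls rest on the 3 libraries of that day: leaving out head, trunk or tail gave 1, 4 and 2 calls, alternatives added after the data were seen, and library totals gave 3. Day 5 libraries were not shallow, with 19445714 counts in head, 21032138 in trunk and 17827248 in tail. Their extraction and sequencing dates are not given in the sources used here, so that a technical difference of that day and a biological one cannot be told apart.

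Common slopes over the days did not pass the test. A slope over log2(day + 1) shared by the fragments was called in 0 of 104 by edgeR and in 1 by DESeq2, where edgeR called 3.60% of all unigenes. An unadjusted p under 0.05 was reached by 5 of the 104 and by 4051 of the 23616 tested unigenes. A test of whether slopes differ between fragments also called 0 by edgeR and 1 by DESeq2, where edgeR called 1.50% of all unigenes. There 17 of the 104 and 2549 of the 23616 tested unigenes had an unadjusted p under 0.05. The median slope per doubling of (day + 1) was 0.131 in tail, with 87 of 104 positive, -0.016 in trunk and -0.068 in head, while all unigenes had -0.007, 0.000 and -0.008. Fitted within tail, 1 member's slope was called (5.41% of all tested unigenes).

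That member, Intraflagellar transport protein 122 homolog (TRINITY_DN16152_c0_g5), a subunit of IFT-A, also had the smallest p among members in the test of slopes that differ between fragments. In tail it had 1.25, 0.947, 2.49, 3.45, 7.36 and 11.7 CPM over the 6 days, each day from day 3 on above the one before. In head it had 6.38 CPM on day 0 and 5.45 on day 10, and in trunk 6.32 and 11.7. The trunk library of day 10 stood apart, since the other unigene of this name dropped there, as given under Other observations. Whether reads were divided differently between the unigenes of this name was not tested. The slopes were 1.08 ± 0.25 in tail (adjusted p = 0.0157), -0.28 in head and 0.21 in trunk, and their difference had an adjusted p = 0.119. A Dynein axonemal heavy chain 5 (TRINITY_DN4472_c0_g2) had fitted slopes of 0.14 in tail and -0.09 in head, with an adjusted p = 0.271 for the difference. Its tail libraries stood at 115 CPM on day 0 and 170 on day 10, and its head libraries at 163 and 138.

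**Figure D5:**
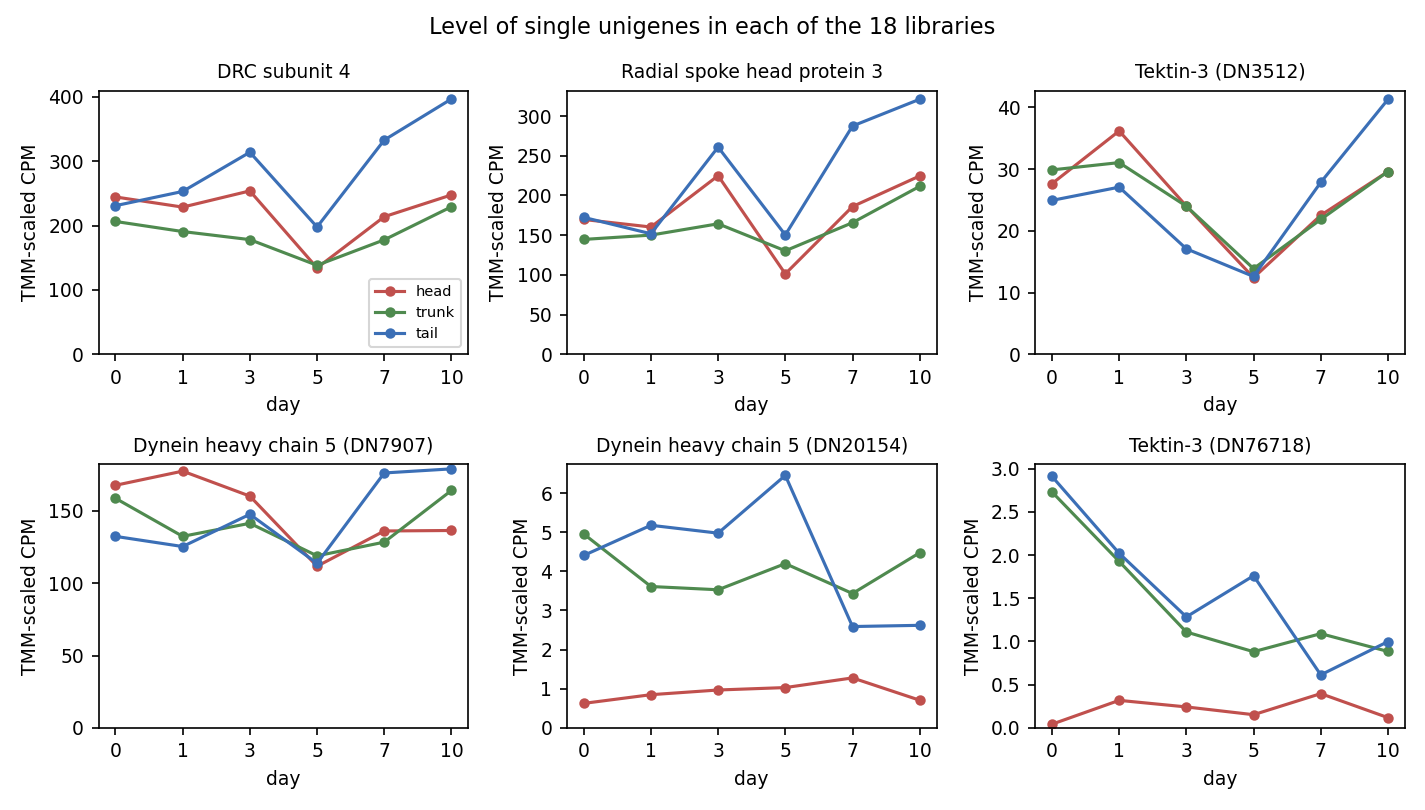
TMM-scaled CPM (vertical axes from 0) of 6 cilia unigenes by day (horizontal axes, evenly spaced) with 1 line per fragment, each point 1 library. Dynein regulatory complex subunit 4 and radial spoke head protein 3 are highest in tail from day 3 on, Tektin-3 (DN3512) is lowest on day 5 in each fragment, and the rare copies of dynein heavy chain 5 and Tektin-3 are low in head on all days, which for Tektin-3 the minimum level fixed.

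Abundant cilia unigenes moved together across libraries. The correlation of each unigene with the median of the others over the 18 libraries, given as a description since the libraries share fragments and days, had a median of 0.883 in the 84 above 5 CPM, of which 70 were over 0.7. It was 0.043 in the 20 below, with 0 over 0.7, and these have the fewest counts. Some rare heavy chains shared another course, highest on day 3 within head and within tail. TRINITY_DN15768_c0_g2 had 2.18 and 4.25 CPM there, TRINITY_DN38176_c2_g1 2.37 and 1.77, and TRINITY_DN64778_c0_g1 1.69 and 2.09. Each of these reached 1 CPM before TMM scaling in 2 head, 0 trunk and 1 tail libraries. High values in few head and tail libraries thus admitted them, so that their likeness is no evidence of a shared course. Other rare heavy chains, such as TRINITY_DN20154_c0_g1, had no such peak. Why the rare unigenes part from the abundant ones was not tested. Of unigenes outside the group 4.39% were over 0.7. The lowest value belonged to a rare Outer dynein arm-docking complex subunit 3 (TRINITY_DN90847_c0_g1), at -0.563.

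Cilia genes outside the naming rule were compared in the same fits. The list held 48 unigenes named for Bardet-Biedl proteins, ciliary kinesins, transition zone proteins, tubulin-modifying enzymes, Hydrocephalus-inducing protein and similar. By edgeR 29 were lower and 0 higher in head than in tail (19.1% and 18.9% of all tested unigenes). An unadjusted p under 0.05 was reached by 32 (10988 of the 23616 tested unigenes), and the median log2 was -0.391. In trunk 29 were again lower than in tail and 0 higher (17.5% and 18.1% of all tested unigenes). There 36 had an unadjusted p under 0.05 (10570 of the 23616 tested unigenes), and the median was -0.392. On day 5, 6 fell (3.92% of all tested unigenes). In all 3 fragments 35 of the 48 lay below days 3 and 7 (9.26% of all tested unigenes). Of the 48, 34 were over 0.7 in correlation with the median of the cilia unigenes, against 4.39% of tested unigenes outside the 104. With library totals the medians for head and trunk against tail were 0.296 and -0.002, and relative to all unigenes -0.423 and -0.397.

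Markers of tissues that hold cilia or lie beside them were compared in the same fits. Of all tested unigenes 19.1% were lower and 18.9% higher in head than in tail, and 21.7% were lower in head than in trunk. The 104 cilia unigenes summed to 2701 to 4509 CPM in head, 3190 to 4675 in trunk and 3637 to 6668 in tail. Of 5 epidermal markers 1 was lower and 1 higher in head than in tail, with a sum of 297 to 505 CPM in head, 457 to 665 in trunk and 498 to 964 in tail, and 2 of the 5 are rootletins that the list of other cilia genes also holds. Of 6 testis and sperm markers 2 were lower in head than in tail, with 112 to 181 CPM in head, 160 to 211 in trunk and 192 to 300 in tail. Both sums, like that of the cilia unigenes, were lowest on day 5 in each fragment, but single markers were less even. For testis and sperm the median fitted change from day 0 to day 5 was log2 -0.011, with 3 of 6 negative. For epidermis it was -0.219, with 4 of 5 negative, and 0 markers of either list were called. Between fragments the 15 protonephridial markers went the other way, with 8 higher and 1 lower in head than in tail. Their sums were 196 to 246 CPM in head, 188 to 222 in trunk and 126 to 150 in tail. Of 17 muscle markers 10 were lower in head than in tail and 11 lower than in trunk, with 5403 to 8140, 9303 to 12522 and 10003 to 14422 CPM. Of 20 neuronal markers 11 were higher and 5 lower in head than in tail. No marker of these lists was at 0 in all libraries of a fragment. What part the makeup of the pooled tissue has in the cilia values was not tested.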

How the data were processed

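The mRNA of 18 pools was sequenced, 1 library per fragment and day. The submitters' processing notes name FastQC, fastp 0.20.0, Bowtie2 and RSEM, without saying what each was used for. The authors deposited counts per unigene that the file header calls raw; they are whole numbers, so rounding of RSEM estimates is possible. Nothing states whether counting used strand. The members, gene lists, rule and tests were chosen with earlier results of these data known, and no pattern already seen is independent support.

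The 23616 unigenes that reached 1 CPM (plain totals) in 3 or more libraries entered tests with edgeR 4.0.16 (limma 3.58.1, R 4.3.3), robust quasi-likelihood, TMM scaling, on fragment plus day; p-values were adjusted over all tested unigenes at 0.05. Further fits used log2(day + 1), with 1 slope or with a slope per fragment. Errors after ± are SE of log2 values. Scripts were tested on simulated data. Named genes were, per class, the most abundant, up to 3 called with the largest fold between head and tail and the same sign on 5 of 6 days, up to 2 for each other pair, and over all classes those with the smallest p over days; exceptions are marked. Alternatives were DESeq2 1.42.0 (scaling and test), library totals with or without the top unigene, other filters, left-out days or libraries, and models without day or with a slope. Python 3.11.15, numpy 2.4.6, pandas 2.3.3, matplotlib 3.10.9 and the R package data.table, version 1.17.8, were also used. Intervals and floors cover counting error only. Sequences of the unigenes were not used here.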

Additional observations from a re-analysis of the deposited data

Results flagged for a closer look

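A few unigenes had all later days on one side of day 0 in one fragment and all on the other side in another, a difference that was not tested in this form. Each value is the median log2 difference between later days and day 0. A Tektin-3 (TRINITY_DN76718_c0_g1) had 1.25 in head, -1.25 in trunk and -1.12 in tail. Cilia- and flagella-associated protein 45 (TRINITY_DN6861_c0_g1) had -0.89 in trunk and 1.28 in tail. Dynein axonemal heavy chain 5 (TRINITY_DN20154_c0_g1) had 0.55 in head and -0.45 in trunk. These 3 are under 5 CPM, where a single count weighs heavily. Dynein regulatory complex subunit 3 (TRINITY_DN23276_c0_g1) had -0.20 in head and 0.45 in tail, and Cilia- and flagella-associated protein 74 (TRINITY_DN5645_c0_g1) had -0.28 in trunk and 0.51 in tail. The test of slopes by fragment, a related question, gave adjusted p of 0.576, 0.978, 0.779, 0.476 and 0.363 for the 5 in this order.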

How the results depend on the processing

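Scaling moved the counts between fragments most. With library totals, 6 of 104 were lower and 52 higher in head than in tail, 46 were higher in head than in trunk, and 1 was lower and 7 higher in trunk than in tail; the medians were 0.347, 0.347 and 0.004, 10 members changed on any day and 3 fell on day 5. All tested unigenes then had medians of 0.719, 0.299 and 0.395. With totals without the most abundant unigene, 24 were lower and 7 higher in head than in tail, and 10 fell on day 5. There 63 were higher in head than in trunk (median 0.399). All tested unigenes had medians of 0.275 against tail and 0.355 against trunk, and relative to these the members stood at -0.371 and 0.044. Shares of all unigenes called under the alternatives are not given here, so that these counts include shifts common to all unigenes. Without a filter on low counts the numbers were 37 lower in head than in tail, 4 higher in head than in trunk, 27 lower and 2 higher in trunk than in tail, 58 on any day, 2 in the trend and 2 in slopes. DESeq2 called 47 on any day, 1 in the trend and 1 in slopes, and slopes over day called 1. Without a day term, 1 was higher in head than in tail, 3 in head than in trunk and 0 in trunk than in tail; with a slope in place of days 39 were lower and 1 higher in head than in tail, 3 higher in head than in trunk and 0 in trunk than in tail. Without the head day 1 library 3 were higher in head than in trunk. Leaving out 1 day at a time gave 0 to 3 higher in head than in tail, 3 to 9 higher in head than in trunk, 1 to 2 higher in trunk than in tail, 0 to 31 on any day (0 without day 5, 10 without day 10), 0 to 3 in the trend, 0 to 1 in slopes and 13 to 22 lower on day 5. Without head, trunk or tail 0, 7 and 1 differed on any day, and 1, 4 and 2 fell on day 5. These fits hold fewer libraries; for the others the cause was not tested.

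Of 77 results for single unigenes under all alternatives, 977 kept direction and call, 140 kept direction and lost the call, and 26 turned sign, all with library totals, which move the median of all unigenes by 0.695 for head against tail and 0.394 for trunk against tail; relative to it the members' medians were -0.371 and -0.392. For head against tail these were Dynein axonemal heavy chains 10 (TRINITY_DN2978_c0_g1, 0.15) and 3 (0.20), intermediate chains 3 (0.20) and 4 (0.26), assembly factors 11 (0.0141), 4 (0.13) and 5 (0.36), docking complex subunits 3 (0.13) and 2 (0.26), Outer dynein arm protein 1 (0.27), Dynein regulatory complex subunit 5 (0.0769) and proteins 11 (0.0847) and 1 (0.11), Radial spoke head proteins 6 homolog A (0.25) and 3 (0.37), Coiled-coil domain-containing proteins 40 (0.0663) and 39 (0.37), CFAP53 (0.10), Intraflagellar transport proteins 140 (0.34), 74 (0.0164) and 80 (0.21) and Stabilizer of axonemal microtubules 1 (0.21). For trunk against tail they were heavy chain 3 (0.0043), intermediate chains 3 (0.0028) and 4 (0.11) and Coiled-coil domain-containing protein 39 (0.11). Libraries of a day are matched by the day term of the model. Depth limits the 20 unigenes under 5 CPM, where 7 members have a library at 0.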

Other observations

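The unigenes of Intraflagellar transport protein 122 homolog (chosen after their values were seen) come from 1 assembly cluster and parted in the trunk library of day 10. TRINITY_DN16152_c0_g1 stood there at 0.939 CPM, against 7.52 to 10.9 in the other trunk libraries, and TRINITY_DN16152_c0_g5 at 11.7 CPM, against 2.38 to 6.32. In tail the former stayed at 9.75 to 13.3 CPM on all days while the latter went from 1.25 to 11.7. Unigenes that match the naming phrases only through an alternative name, Protein kintoun, WD repeat-containing proteins 19 and 35 and Tetratricopeptide repeat protein 21B, 4 in all, lie outside the rule and were not counted.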
